A study of Homo sapiens with 12 samples.

Results

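SERPINA3 was followed across 12 arrays of A375 cells, an established human melanoma cell line, after treatment with ciclopirox or crizotinib. It was chosen because of its measured pattern on these same arrays, so its levels and differences are given as a description with no test. It was 1 gene, read by 1 probe, of 10330 genes measured. A gene counted as measured when a named probe of it was detected on at least 2 of the 12 arrays (detection p under 0.01). Genes given as not measured did not pass this filter or had no such probe, so they may still be on the array. Ciclopirox is an antifungal drug that chelates iron, and crizotinib blocks the receptor kinases MET, ALK and ROS1. Each was given at an inhibitory concentration set beforehand, which the labels do not state as an amount. The cells had been plated overnight and total RNA was taken at harvest. The array titles gave 2 controls, which were cells in the vehicle dimethyl sulfoxide, 3 arrays of ciclopirox for 8 h, 2 of ciclopirox for 24 h, 3 of crizotinib for 8 h and 2 of crizotinib for 24 h. The control titles carry no time, so the same 2 arrays served both times and the 4 comparisons with control share them. In these comparisons the drug and the time in culture cannot be told apart, also where both drugs differ from control at the same time. Replicates are numbered, but nothing says that they came from separate cultures, so their spread may be technical. A single chip (1) held the 12 arrays, where position and group cannot be told apart.

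SERPINA3 encodes alpha-1-antichymotrypsin, a secreted serine protease inhibitor of the serpin family that blocks cathepsin G and mast cell chymase. The liver releases it as an acute-phase protein. Interleukin 6 and oncostatin M raise its transcription through the receptor subunit gp130, the JAK kinases and the factor STAT3, and interleukin 1 does so through NF-kB. Transcripts are also made outside the liver, among them in astrocytes and in melanoma cells.

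The promoter is shown because STAT3-related genes are set beside SERPINA3 below. RefSeq places the gene on chromosome 14, and the window runs from 250 bases before to 50 bases after its annotated start at chr14:94612141-94612440 on the + strand of GRCh38.p14. Capitals mark each 9-base stretch that matches the STAT motif TTCNNNGAA with at most 1 of its 6 fixed letters different.
SERPINA3: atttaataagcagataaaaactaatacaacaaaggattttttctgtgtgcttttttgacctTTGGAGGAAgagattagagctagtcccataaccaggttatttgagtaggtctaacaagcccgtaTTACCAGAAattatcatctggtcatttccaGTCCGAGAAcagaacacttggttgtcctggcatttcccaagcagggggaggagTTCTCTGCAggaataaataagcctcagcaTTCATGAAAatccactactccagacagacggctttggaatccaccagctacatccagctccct
No stretch matched the motif exactly on either strand, and 7.66% of 35116 human promoter windows of the same length held an exact match. There were 5 stretches with 1 mismatch, which began 189, 125, 95, 42 and 13 bases before the start. Such a near match was found in 66.1% of promoter windows. The AP-1 motif TGANTCA, the C/EBP motif TTGCNNAA, the TATA box TATAAA and an NF-kB motif were also absent as written, and were held by 7.71%, 10.5%, 11.5% and 5.91% of windows. These are letter matches in 1 window and were not read as binding sites.

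The names of the arrays carry a limit that touches every value below. The normalized table names its columns by sample, and each of the 12 columns followed a single column of the scanner table, with correlations of probe deviations from 0.928 to 0.979 against at most 0.833 for the next column. Only 2 of the 12, both controls, followed the scanner column that their own description names. With the titles, the array most like each of the 12 arrays was of its own group in 12 cases, and with the descriptions in 7. Under the descriptions limma called 199 genes at 8 h of ciclopirox against control and 0 in the other 3 comparisons with control, where 1368 to 1539 genes had an unadjusted p under 0.05. The titles on the normalized table were used throughout. Under the descriptions SERPINA3 was lowest in other arrays, as given at the end of the group comparisons.

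SERPINA3 was well above background on every array. Its detection p was 0 on all 12 scanner columns. Its normalized intensity was 8.15 to 81.2 times a background level of 40.3, the 99th percentile of values from 20196 probes never detected. Of 9 melanocyte genes, SOX10, MITF and GPNMB were measured, and their summed intensity was 3893 to 3948 in control, 2763 to 2881 and 2779 to 3176 at 8 h of ciclopirox and crizotinib, and 4149 to 4253 and 4936 to 4969 at 24 h. The members of this sum did not move together. SOX10 read 3506 and 3609 in control and 3819 and 3658 at 24 h of crizotinib. GPNMB read 350.7 and 287.5 in control and 1072.2 and 1269.5 at 24 h of crizotinib. At 8 h limma called SOX10 lower than control with both drugs, and GPNMB higher with crizotinib. MITF read 34.1 to 63.5 and was above background on 9 of the 12 arrays. PMEL, MLANA, TYR, TYRP1, DCT and S100B were not measured. Of 8 hepatocyte genes, the cell type best known for SERPINA3, only ALB was measured, at 21.7 to 71.7 and above background on some arrays only. The part of the melanocyte genes in the SERPINA3 result was not tested.

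SERPINA3 was high in control and at 24 h of ciclopirox, lower at 8 h of either drug and lowest at 24 h of crizotinib. The control arrays read 2954 and 2324, a mean of 2639 ± 446 (SD, n = 2) in normalized intensity units. The ciclopirox arrays read 971, 977 and 1147 at 8 h, a mean of 1031 ± 99.9 (SD, n = 3). They read 3274 and 2631 at 24 h, a mean of 2953 ± 455 (SD, n = 2). Ciclopirox thus showed a low level at the early time and, at the late time, a level that overlapped control. The crizotinib arrays read 1009, 1040 and 1828 at 8 h, a mean of 1293 ± 464 (SD, n = 3). They read 404 and 329 at 24 h, a mean of 366 ± 53.0 (SD, n = 2). Both late crizotinib arrays lay below every other array of the study. As shares of control, taken between geometric means, the groups were at 39.3% at 8 h and 112% at 24 h of ciclopirox, and 47.4% and 13.9% for crizotinib.

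**Figure D1:**
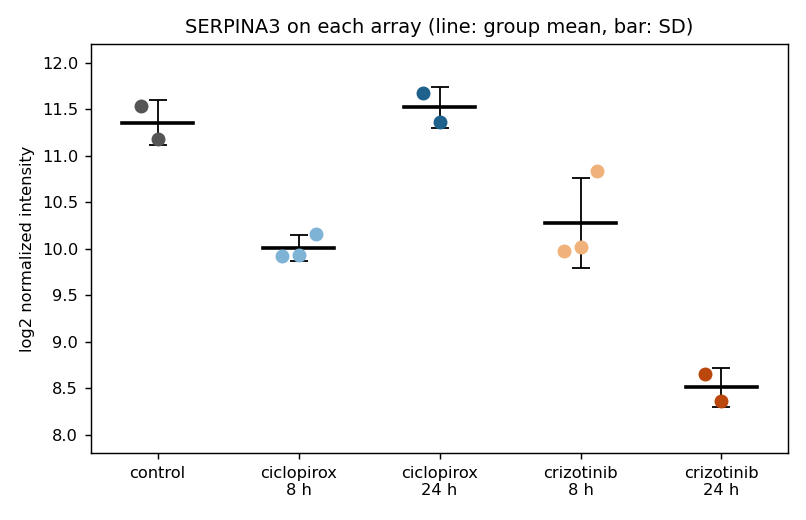
SERPINA3 on each of the 12 arrays, as log2 of normalized intensity on the vertical axis, by title group on the horizontal axis. Points are arrays, long lines group means and bars the SD of 2 or 3 arrays. The 2 crizotinib 24 h arrays sit alone at the bottom with a mean of 8.51, and control and ciclopirox 24 h overlap at 11.36 and 11.52.

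In order, the log2 group means were 11.52 for ciclopirox 24 h, 11.36 for control, 10.28 for crizotinib 8 h, 10.01 for ciclopirox 8 h and 8.51 for crizotinib 24 h. Ciclopirox 24 h overlapped control, and crizotinib 8 h overlapped ciclopirox 8 h. The other neighbours in the order were apart: every control array was above every crizotinib 8 h array, and every ciclopirox 8 h array was above both crizotinib 24 h arrays. The spread of SERPINA3 within groups was wide, with a pooled SD of 0.31 on the log2 scale against a median of 0.14 over all genes, and 6.44% of genes had a larger one. In RNA from whole cultures, a loss of the cells that make a transcript and less of it per cell cannot be told apart.

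SERPINA3 was 2.85 lower than control on the log2 scale at 24 h of crizotinib, a 7.19-fold lower level. The smallest gap between a control and a crizotinib 24 h array was 2.52. It had the lowest difference of all 10330 genes in this comparison, and by size in either direction it stood at place 8. The next lowest were EDN1, which encodes the vasoconstrictor endothelin 1, at -2.06, XYLT1, which starts glycosaminoglycan chains on proteoglycans, at -1.98, and CNIH2, an auxiliary protein of AMPA receptors, at -1.97. Their distance to SERPINA3 was larger than their distances to each other. XYLT1 read 160 and 162 in control and 40.5 and 41 at 24 h of crizotinib, close to the background level of 40.3. EDN1 read 169 and 157 in control and 33 and 46.4 at 24 h of crizotinib. The falls of both may thus be cut short by the background, which SERPINA3 did not reach. The second CNIH2 probe gave -0.86, and EDN1 was well above background on 1 of the 2 crizotinib 24 h arrays.

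**Figure D2:**
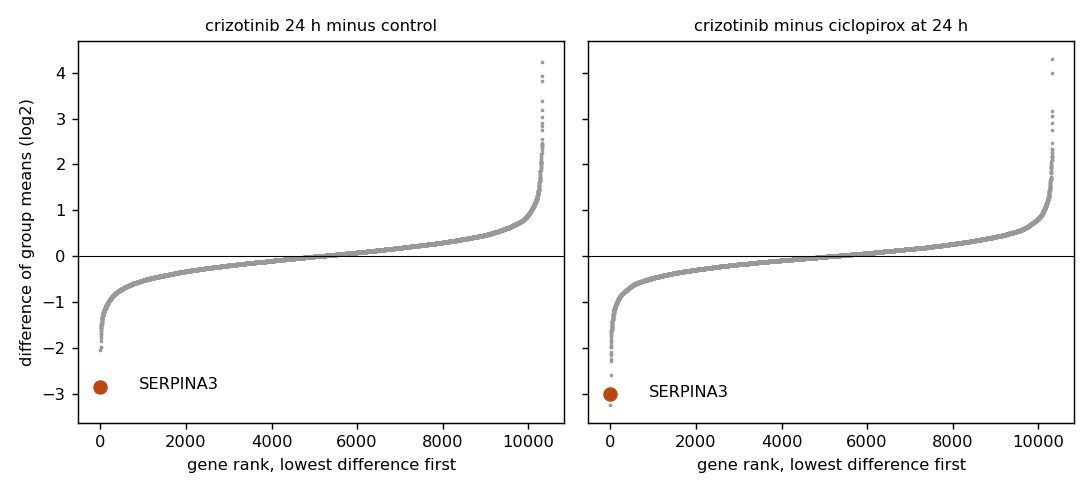
All 10330 measured genes ordered by their difference of group means, with the log2 difference on the vertical axis and the rank on the horizontal axis, for crizotinib 24 h minus control on the left and crizotinib minus ciclopirox at 24 h on the right. The large point is SERPINA3, at rank 1 from the bottom with -2.85 and at rank 2 with -3.01.

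At 8 h SERPINA3 was lower than control under both drugs. With ciclopirox the log2 difference was -1.35, or 2.55-fold lower, at rank 12 from the bottom. With crizotinib it was -1.08, or 2.11-fold lower, at rank 23 from the bottom. The 8 h groups overlapped each other, with crizotinib 0.27 above ciclopirox, so the drugs were not separated at that time. The third crizotinib 8 h array was 0.84 above the mean of the other 2 for SERPINA3, a gap that 35 genes reached or passed on that array. Without it the 8 h difference between crizotinib and ciclopirox was -0.005.

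From 8 h to 24 h the SERPINA3 level ran in opposite directions under the drugs. Under ciclopirox it was 1.51 higher on the log2 scale at 24 h than at 8 h, or 2.85-fold, at rank 22 from the top. Under crizotinib it was 1.77 lower at 24 h than at 8 h, or 3.41-fold, at rank 6 from the bottom. The groups did not overlap in either case. The difference between these changes was -3.28, which was the largest of all 10330 genes in either direction. At 24 h the difference of crizotinib from ciclopirox was -3.01, or 8.05-fold lower, and only EDN1 was lower at -3.25. Against control at 24 h of ciclopirox SERPINA3 was 0.16 higher, with overlapping arrays.

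With the scanner columns taken by their descriptions, the picture changed. SERPINA3 then read 3378 and 2420 scanner units in control, 352, 320 and 3391 at 8 h of ciclopirox, and 2832 and 927 at 24 h of ciclopirox. For crizotinib it read 1060, 1652 and 948 at 8 h and 932 and 1175 at 24 h. The 2 lowest columns carried descriptions of ciclopirox 8 h arrays, and the third array so described was the highest of all. By probe deviations, the 2 lowest were the columns that the normalized arrays titled crizotinib 24 h followed, with correlations of 0.977 and 0.979. The highest was the column that the array titled ciclopirox 24 h replicate 1 followed, at 0.964. Without any names, the scanner table held 2 columns at 320 to 352, 6 at 927 to 1652 and 4 at 2420 to 3391.

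Genes with the most similar pattern were sought by Pearson r over the 12 arrays among 1082 genes whose group means spanned at least 1 on the log2 scale. They were chosen on these arrays, and the arrays share their groups, so r is given with no test. The 8 highest were TNC at 0.905, HAS2 at 0.903, COL4A1 at 0.876, EXO1 at 0.868, TMX4 at 0.864, HAPLN1 at 0.858, TMTC2 at 0.846 and EFNB2 at 0.843. TNC encodes the matrix glycoprotein tenascin C, HAS2 a hyaluronan synthase, COL4A1 a basement membrane collagen chain and HAPLN1 a protein that links hyaluronan to proteoglycans. EXO1 is a DNA repair exonuclease, TMX4 a thioredoxin-like membrane protein and EFNB2 the ligand ephrin B2. TNC read 868 and 786 in control, 705, 759 and 617 at 8 h and 1147 and 1281 at 24 h of ciclopirox, and 664, 806 and 746 at 8 h and 434 and 360 at 24 h of crizotinib. Like SERPINA3 it was lowest in both crizotinib 24 h arrays and dipped at 8 h of ciclopirox, but its ciclopirox 24 h arrays were above both controls. HAS2 read 61.7 and 59.3 in control and 77.1 and 68.2 at 24 h of ciclopirox, and on the other 8 of the 12 arrays, those of crizotinib and of 8 h of ciclopirox, it was not well above background, so its r rests mostly on such values. Its crizotinib 24 h arrays read 22.2 and 21.1. It was at least 1.50-fold lower at 24 h of crizotinib than in control. At 24 h of crizotinib the 8 genes were lower than control by 0.68 for TMTC2 to 1.63 for EXO1 on the log2 scale, against 2.85 for SERPINA3. TMTC2 read 88.1 and 75.1 in control and 48.6 and 53.2 at 24 h of crizotinib. HAPLN1 read 111 and 125 in control and 68.4 and 42.2 at 24 h of crizotinib. Like HAS2, both came near the background level of 40.3, so the falls of these genes may be cut short. Second probes of TNC, HAS2, EXO1 and TMX4 gave -0.92, -0.96, -1.71 and -1.09.

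The genes with the most opposite pattern were SCARB1 at an r of -0.931, RAB3IL1 and CPA4 both at -0.907 and ACAT2 at -0.906. SCARB1 is a receptor for high-density lipoprotein, RAB3IL1 an exchange factor for RAB3 proteins, CPA4 a carboxypeptidase and ACAT2 a cytosolic enzyme of the sterol pathway that joins acetyl-CoA units. ACAT2 read 1157 and 1289 in control and 3534 and 3635 at 24 h of crizotinib, where SERPINA3 was lowest. Over the scanner columns, which needs no array names, r was 0.839 to 0.896 for the 8 alike genes and -0.922 to -0.910 for the 4 opposite ones.

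**Figure D3:**
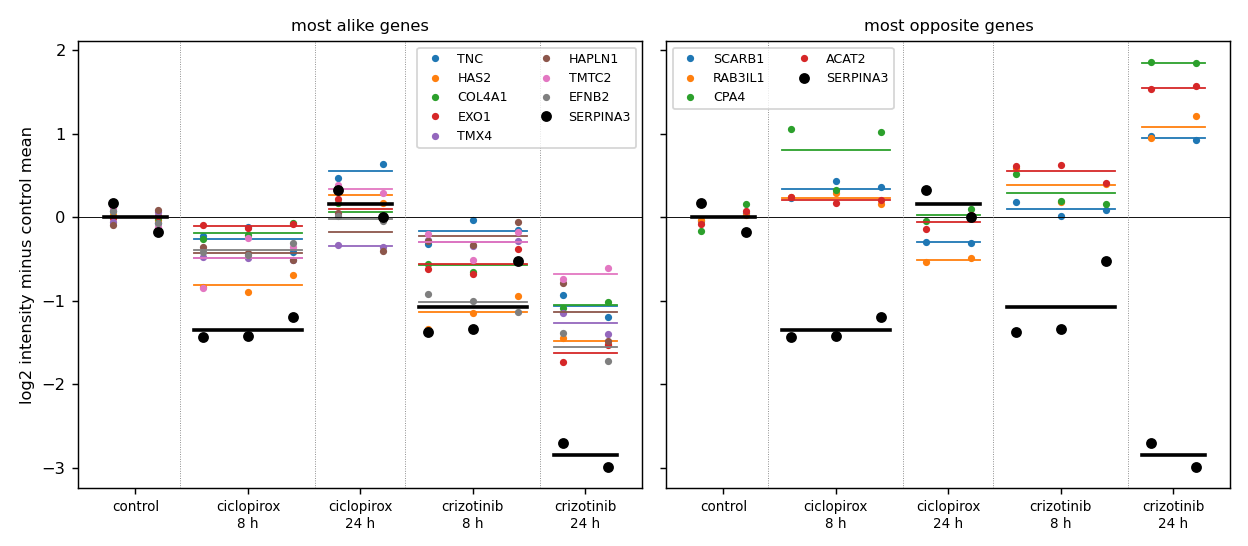
Log2 intensity minus the control mean on the vertical axis for each of the 12 arrays, set out by group on the horizontal axis. SERPINA3 is in black with the 8 most alike genes on the left and the 4 most opposite on the right. Points are arrays and lines group means. SERPINA3 reaches -2.85 at 24 h of crizotinib, where the 8 alike genes lie between -1.63 and -0.68.

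STAT3-related genes were compared to see whether they moved as SERPINA3 did. Of 44 listed genes of the cascade, from ligands to targets, 30 were measured. They were tested with limma across all genes, and called at a Benjamini-Hochberg adjusted p under 0.05. At 24 h of crizotinib against control 3 rose and 5 fell of the 30, where 31% of all genes were called. For crizotinib against ciclopirox at 24 h 7 fell and 0 rose (1 was higher at an unadjusted p under 0.05 in limma), with 24.1% of all genes called. At 8 h against control 4 rose and 3 fell with ciclopirox, where 11.1% of all genes were called, and 1 rose and 6 fell with crizotinib, where 9.8% were called. The 24 h ciclopirox arrays had 8 risen and 1 fallen, with 10.6% of all genes called. In the drug difference of the change from 8 h to 24 h, 1 was higher under crizotinib and 3 lower, with 11.3% of all genes called, and the total of 4 was 2 without the first crizotinib 24 h array. Without the first control array the 4 comparisons with control called 3 and 4 genes of the list at 8 h and 24 h of ciclopirox, and 2 and 4 for crizotinib. The list median at 24 h of crizotinib was -0.04, against 0.01 over all genes and -2.85 for SERPINA3. Over the 12 arrays the members' r with SERPINA3 had a median of 0.15, with 6 of 30 over 0.5, a level that 12.5% of all genes passed.

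Among the ligands, LIF, which signals through gp130, and CTF1 were measured, and IL6, IL11 and OSM were not. LIF rose by 0.89 ± 0.24 (SE, limma adjusted p = 0.0188) at 24 h of crizotinib, where SERPINA3 was lowest. It also rose by 1.04 ± 0.24 (SE, limma adjusted p = 0.0255) at 24 h of ciclopirox, where SERPINA3 was near control. LIF read 38.7 and 48.6 in control, close to the background level of 40.3, so the sizes of these rises are uncertain. The LIF calls were lost when single arrays were left out, with an adjusted p of up to 0.121 without the first control array and 0.151 without the second ciclopirox 24 h array. The receptor subunit gp130, encoded by IL6ST, differed from control by 0.02 at 24 h of crizotinib and 0.27 at 24 h of ciclopirox, and neither passed the test. OSMR, the oncostatin M receptor chain, rose at 24 h of ciclopirox by 0.86, a call lost without any 1 of its 4 arrays (limma adjusted p up to 0.107). OSMR read 45.8 and 40.2 in control, also close to the background level. IL6R was not measured. The kinase JAK1 differed from control by 0.17 at 24 h of crizotinib and 0.00 from ciclopirox, and did not pass the test.

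STAT3 itself did not follow SERPINA3. Its intensity was 492 and 456 in control, 515 and 620 at 24 h of crizotinib and 649 and 619 at 24 h of ciclopirox. The difference at 24 h of crizotinib was 0.25 ± 0.10 (SE, limma adjusted p = 0.0867), and at 24 h of ciclopirox it rose by 0.42 ± 0.10 (SE, limma adjusted p = 0.0309). Its other 2 probes gave 0.13 and 0.15 in the latter comparison, and the call was lost without any 1 of its 4 arrays (limma adjusted p up to 0.139, without the second control). The arrays measure STAT3 transcript and not the phosphorylated protein that acts on promoters.

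The inhibitor SOCS3, a feedback target of STAT3, was lower with SERPINA3 under crizotinib. It read 60.8 and 46.3 in control and 30.9 and 30.2 at 24 h of crizotinib, which is not well above background. It was at least 1.32-fold lower there (limma adjusted p = 0.00215), and at least 1.32-fold lower at 8 h (adjusted p = 0.0332, or 0.226 without the first control array). At 8 h of ciclopirox, where SERPINA3 was also low, SOCS3 read 72.0, 56.7 and 62.3, a difference from control of 0.26 that did not pass the test. PTPN11, which encodes the phosphatase SHP2, fell by 0.40 at 24 h of crizotinib.

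Among the 15 targets measured, IRF1 had the highest r with SERPINA3 of the whole list, at 0.873, and was singled out after its values were seen. IRF1 is a transcription factor induced by interferons and other STAT-activating cytokines. It read 585 and 646 in control, 447, 426 and 456 at 8 h and 603 and 576 at 24 h of ciclopirox, and 432, 433 and 452 at 8 h and 392 and 408 at 24 h of crizotinib. Its groups stood in nearly the order of those of SERPINA3, with control and ciclopirox 24 h overlapping at the top and crizotinib 24 h lowest, over a narrower range. It fell by 0.47 ± 0.08 (SE, limma adjusted p = 0.00571) at 8 h of ciclopirox and by 0.49 ± 0.08 (SE, limma adjusted p = 0.00668) at 8 h of crizotinib. At 24 h of crizotinib it fell by 0.62 ± 0.09 (SE, limma adjusted p = 0.000472), and at 24 h of ciclopirox its difference was -0.06 (adjusted p = 0.707). Without the second control array the calls at 8 h were lost, with limma adjusted p of 0.0541 and 0.0568, and the call at 24 h of crizotinib was kept without any 1 array. PIM1, a serine kinase, fell by 0.52 at 24 h of crizotinib (limma adjusted p = 0.0157, or 0.127 without the first crizotinib 24 h array), and at 8 h, where SERPINA3 was low, its differences of 0.23 and 0.44 did not pass the test.

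BCL3 and BCL6, a co-activator of NF-kB and a transcriptional repressor, were chosen after their values were seen, and fell at 8 h of both drugs, where SERPINA3 was low. BCL3 fell by 0.74 with ciclopirox and 0.56 with crizotinib, and BCL6 fell by 0.50 and 0.37. The crizotinib calls of both genes were lost whichever 1 of the 5 arrays compared was left out. The ciclopirox call was lost in 2 of 5 such fits for BCL3 and in 1 of 5 for BCL6, each time including that without the first control array. Over these fits the differences with ciclopirox and crizotinib were -0.84 to -0.64 and -0.61 to -0.48 for BCL3. For BCL6 they were -0.64 to -0.37 and -0.50 to -0.23. At 24 h of crizotinib, where SERPINA3 was lowest, their differences of -0.34 and -0.06 did not pass the test. MYC, also a listed target chosen after its values were seen, went the other way at 8 h. It was called higher than control by limma at both times of both drugs. MYC read 543 and 586 in control. At 8 h it read 1050, 1006 and 1091 with ciclopirox and 926, 910 and 1009 with crizotinib. Its second probe gave 0.90 and 0.45 at 8 h of ciclopirox and crizotinib, and 0.27 and -0.05 at 24 h.

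Other targets matched SERPINA3 in some comparisons and not in others, with an r of 0.560 for FOS and 0.511 for VEGFA. FOS, a subunit of AP-1, read 56.9 and 66.7 in control, 178 and 166 at 24 h of ciclopirox and 57.0 and 55.9 at 24 h of crizotinib. It was 1.61 ± 0.19 lower (SE, limma adjusted p = 0.000218) under crizotinib than ciclopirox at 24 h, as SERPINA3 was, but this came with a rise under ciclopirox. VEGFA, the endothelial growth factor, likewise rose by 1.08 at 24 h of ciclopirox and differed from control by -0.39 at 24 h of crizotinib (limma adjusted p = 0.05, which did not pass). At 8 h of ciclopirox, where SERPINA3 was low, VEGFA rose by 0.80 ± 0.12 (SE, limma adjusted p = 0.00397), and its second probe gave 0.82. BIRC5, the cell-division protein survivin, fell by 0.76 at 24 h of crizotinib and by 0.66 at 24 h of ciclopirox. CEBPB, a C/EBP factor of the acute-phase response, rose by 0.60 at 24 h of ciclopirox (limma adjusted p = 0.00989, or 0.0691 without the first control array) and differed from control by 0.09 at 24 h of crizotinib. It was lower at 8 h of crizotinib by 0.40 (adjusted p = 0.0359, or 0.176 without the second control array) and under crizotinib than ciclopirox at 24 h by 0.51 (0.00817, or 0.0568 without the first ciclopirox 24 h array), as SERPINA3 was. CEBPD passed the test in none of these 6 comparisons. In the crizotinib 8 h array with the high SERPINA3 value, CEBPD read 157 against 105 and 95.9 in the other 2, and the part of this in the SERPINA3 spread was not tested.

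**Figure D4:**
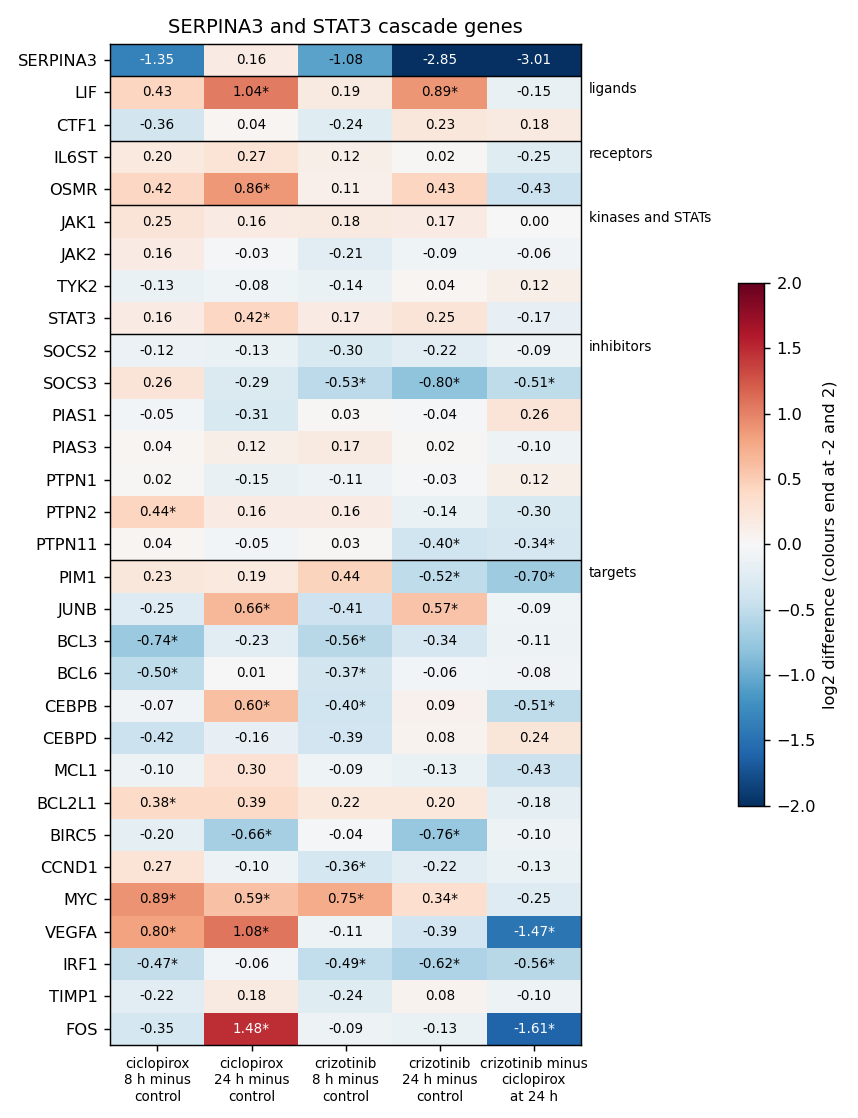
Log2 differences of SERPINA3 and the 30 measured STAT3 cascade genes (rows, by role) in 5 comparisons (columns). Red is higher and blue lower, colours end at -2 and 2, and an asterisk marks a limma adjusted p under 0.05 for the list genes, with SERPINA3 not tested. No list gene reaches the -2.85 of SERPINA3 at 24 h of crizotinib. Some, among them FOS, LIF, SOCS3 and OSMR, read too close to the background level of 40.3 in control for such a fall to be seen.

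Few other acute-phase genes were measured, 4 of 33 listed. C4BPA, a complement regulator, read 49.8 and 64.7 in control and was not well above background in any treated group. It was thus measured here only through the controls, and its lower values under both drugs, also at 24 h of ciclopirox where SERPINA3 was near control, are no support for a shared direction. SERPINA1 and CD14 were called higher at 24 h of crizotinib, where 31% of all genes were called, and LRG1 was not called. SERPINA1, the elastase inhibitor alpha-1-antitrypsin, lies near SERPINA3 in the serpin cluster of chromosome 14. It read 35.7 and 34.9 in control, which is not well above background, and 76.2 and 54.5 at 24 h of crizotinib, at least 1.60-fold higher (limma adjusted p = 0.0109, or 0.0947 without the first crizotinib 24 h array). The second SERPINA1 probe gave a log2 difference of 0.30. SERPINA3 and SERPINA1 thus stood on opposite sides of control at 24 h of crizotinib.

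Of 35 other serpin genes 8 were measured. At 24 h of crizotinib 4 of the 8 were called, 3 higher and 1 lower, where 31% of all genes were called, and without the second control array the count was 1. SERPINB1, an inhibitor of neutrophil proteases, rose by 0.75 ± 0.13 (SE, limma adjusted p = 0.00156). SERPINH1, a chaperone for collagen in the endoplasmic reticulum, fell by 0.45. SERPINB5, known as maspin, was well above background only on the 2 crizotinib 24 h arrays, at 63.4 and 45.9, and so was measured here through the group where it is high, which makes its call no support for a rise. SERPINB7 rose at 8 h of both drugs, by 0.69 with ciclopirox and by 0.45 with crizotinib, and SERPINB8 rose by 0.50 at 24 h of ciclopirox. Without single arrays the calls of SERPINH1 and SERPINB8 were lost (limma adjusted p up to 0.184 and 0.112), as were those of SERPINB7 at 8 h (up to 0.0782 with ciclopirox and 0.304 with crizotinib). None of the 6 proteases listed as targets of SERPINA3, among them cathepsin G (CTSG), was measured. Of the 20 genes next to SERPINA3 in the order of the chromosome, counted on both sides, 7 were measured. At 24 h of crizotinib 2 of the 7 (28.6%) were called, SERPINA1 and GLRX5, a share near the 31% of all genes. GLRX5, a mitochondrial iron-sulfur protein, fell by 0.37 (limma adjusted p = 0.0125, or 0.0808 without the second crizotinib 24 h array).

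Genes of NF-kB and interleukin 1 were set beside SERPINA3 because interleukin 1 can raise it. Of 26 listed, 16 were measured, and 5 rose and 2 fell at 24 h of crizotinib, where 31% of all genes were called. IL1B, which encodes interleukin 1 beta, read 118 and 126 in control and 353 and 363 at 24 h of crizotinib, a rise of 1.56 ± 0.12 (SE, limma adjusted p = 1.66e-05). It rose by 1.31 at 24 h of ciclopirox, and fell by 0.49 and by 1.09 at 8 h of ciclopirox and crizotinib. IL1B and IL1A were thus low with SERPINA3 at 8 h and high at 24 h of both drugs. IL1A rose by 0.99 at 24 h of crizotinib. CXCL8, the chemokine interleukin 8, read 6457 and 6400 in control and 2301 and 2313 at 24 h of crizotinib. It fell by 1.48 ± 0.13 (SE, limma adjusted p = 3.28e-05), and it also fell at 8 h of crizotinib, to 1675, 1399 and 1760, and by 0.47 at 8 h of ciclopirox. CXCL8 was below control in the same 3 groups as SERPINA3, but its lowest group was crizotinib 8 h. The 8 h ciclopirox calls of IL1B, IL1A and CXCL8 were lost without single arrays, with limma adjusted p of up to 0.117, 0.124 and 0.151. CCL2, a monocyte chemokine, fell by 0.98 at 24 h of crizotinib and by 0.59 at 24 h of ciclopirox, which was lost without single arrays (adjusted p up to 0.224). PLAU, the urokinase protease, rose by 0.49 at 24 h of crizotinib, and NFKB2 rose by 0.64, where its other probe gave 0.35. Both of these calls were lost without single arrays (limma adjusted p up to 0.0984 and 0.0799). NFKBIA, the inhibitor of NF-kB, passed the test in none of these comparisons with control. It was called higher by limma at 24 h than at 8 h of crizotinib, where SERPINA3 was 1.77 lower.

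Glucocorticoids raise acute-phase genes together with interleukin 6, and 7 of 12 listed response genes were measured. Of these, 2 rose and 2 fell at 24 h of crizotinib, where 31% of all genes were called. KLF9, a zinc-finger factor chosen after its values were seen, was lower at 8 h of both drugs, as SERPINA3 was, by 1.21 with ciclopirox (limma adjusted p = 0.000441) and 0.46 with crizotinib (0.0406, or 0.2 without the first control array). ERRFI1, an inhibitor of the epidermal growth factor receptor, read 1942 and 1677 in control, 3090 and 3102 at 24 h of ciclopirox and 1221 and 1177 at 24 h of crizotinib. It had an r of 0.779 with SERPINA3 and was lower under crizotinib than ciclopirox at 24 h by 1.37 ± 0.09 (SE, limma adjusted p = 7.61e-06). FKBP5, a chaperone partner of the glucocorticoid receptor, fell by 0.65 at 24 h of crizotinib. TSC22D3 and DUSP1, which are induced by glucocorticoids, rose by 0.77 and by 0.66 in the same comparison, so they stood opposite to SERPINA3. The 24 h ciclopirox rise of TSC22D3 was 1.23 and that of DUSP1 was 0.83. At 8 h of ciclopirox, where SERPINA3 and KLF9 were low, limma called TSC22D3 and DUSP1 higher, by 0.38 and 0.70. With single arrays left out these differences were 0.31 to 0.43 and 0.60 to 0.80. At 8 h of crizotinib 0 of the 7 were called higher and 3 lower, KLF9 and ERRFI1 among them, where 9.8% of all genes were called. Members of the STAT3, NF-kB, glucocorticoid and serpin lists were called on both sides of control at 24 h of crizotinib.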

How the data were processed

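The arrays were Illumina bead chips. The deposited scanner table holds one intensity per probe, linear and not normalized, with a detection p-value, per the file headers, and the submitters' processing notes name GenomeStudio with no version. The value table deposited by the authors is linear normalized intensity, with array medians of 28.3 to 29.6, and how it was normalized is not given in the sources used. No column of another series was present (0).

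Log2 was taken of the authors' deposited table. Probes with a detection p under 0.01 on at least 2 of 12 scanner columns were kept (16563 of 38220), a count that needs no column name. Symbols came from the platform annotation, with 27002 probes of 1 symbol, 4 of several and 11214 unnamed here, and 1 probe per gene, that of highest mean, left 10330 genes. limma 3.58.1 in R 4.3.3 fitted a mean per title group over all 12 arrays (7 residual degrees of freedom), with eBayes, two-sided tests and Benjamini-Hochberg adjustment over all genes, after it was tested on simulated data. Calls have an adjusted p under 0.05. The precision is limited by 2 or 3 arrays per group. Means are given with SD, and fitted differences with SE.

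A probe was taken as not well above background in a group when no array there had a value above the 99th percentile of probes detected on no scanner column. An "at least" fold sets the brighter group's mean against that level, or against the dim probe's own value where higher.

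The gene, the lists and the tests were chosen with earlier results of these data known. Named were SERPINA3, the 8 most alike and 4 most opposite genes by r, up to 6 members per list called at 24 h of crizotinib against control or against ciclopirox, 10 fixed pathway genes where measured (among them STAT3, IL6ST, JAK1 and NFKBIA), the 3 rank neighbours and, after their values were seen, IRF1, OSMR, PTPN11, BCL3, BCL6, CCND1, KLF9 and GLRX5. MYC was added later, also with its values seen, and its calls are not among the 89 calls of named genes counted below. Same-numbered arrays of different groups did not deviate together: r was -0.092 to 0.081 over 21 pairs, with 0 over 0.1, so no pairing was used. Marker lists for astrocytes, keratinocytes, fibroblasts and leukocytes had 1 of 4, 0 of 5, 3 of 6 and 1 of 6 genes measured, and among these CD68 rose at 24 h of both drugs and LUM rose at both times of crizotinib. The alternatives changed the log offset, the detection filter, the probe choice, the scaling, the source table with its names, the replicate block and the groups in the fit, or left out an array.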

Additional observations from a re-analysis of the deposited data

Results flagged for a closer look

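For 8 genes of the lists set beside SERPINA3, the drugs differed in how far expression went between 8 h and 24 h, by a test of the difference itself (limma interaction term, adjusted over all genes), where 11.3% of all genes were called. They were 4 of 30 measured genes of the STAT3 list, 2 of 16 of the NF-kB list and 2 of 7 of the glucocorticoid list. Of the acute-phase and serpin lists 0 of 4 and 0 of 8 were called. The STAT3 and NF-kB shares are near that of all genes, so the counts are not read as a result about the lists. The crizotinib change minus the ciclopirox change was -1.86 for FOS (adjusted p = 0.00142), with changes of -0.03 and 1.83. It was -1.11 for ERRFI1 (adjusted p = 0.000564), with changes of -0.21 and 0.89, and -0.55 for IRF1 (adjusted p = 0.0122), with -0.13 and 0.41, though its adjusted p was 0.054 without the first crizotinib 24 h array. It was -0.95 for CCL2 (adjusted p = 0.0189), with -1.26 and -0.31 (0.0731 without the second ciclopirox 24 h array), and -0.92 for PIM1 (adjusted p = 0.00874), with -0.95 and -0.04. IL1B had the opposite sign at 0.84 (adjusted p = 0.00808), with rises of 2.65 under crizotinib and 1.81 under ciclopirox. CCND1 was also higher, at 0.50 (adjusted p = 0.0444, or 0.155 without the second ciclopirox 24 h array), with changes of 0.13 and -0.37. KLF9 was at -0.83 (adjusted p = 0.0135, or 0.0548 without the second crizotinib 24 h array), with 0.45 and 1.28. SERPINA3 had -3.28 as a description with no test.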

How the results depend on the processing

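SERPINA3 kept the sign of 7 of its 9 differences under every alternative run, and at 24 h of crizotinib it stayed the lowest gene except with the scanner table and its descriptions. The other 2, where arrays overlap, turned when an array was left out, ciclopirox 24 h minus control to -0.01 without control replicate 2 and crizotinib minus ciclopirox at 8 h to -0.005.

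With scanner signals (neqc) named by the descriptions, SERPINA3 was -1.75 and -0.66 against control at 8 h and 24 h of ciclopirox and -1.29 at 24 h of crizotinib. It was 1.09 and -0.20 from 8 h to 24 h, 0.66 and -0.63 between the drugs at 8 h and 24 h, and -1.29 for the difference in change. Its rank from the bottom at 24 h was 11 against control and 184 against ciclopirox. STAT3 cascade calls by limma were 0 in these 5 tested comparisons, with 10, 5, 6, 8 and 1 at an unadjusted p under 0.05. All 89 calls of named genes were lost. Those that turned sign were IL1B 1.41, IL1A 0.99, PLAU 0.18, BCL6 0.014 and KLF9 0.063 with ciclopirox (8 h). With crizotinib (24 h) they were PIM1 0.20, CD14 -0.26, IL1B -0.31, IL1A -0.71, PLAU -0.60, FKBP5 0.0015, SERPINB5 -0.19, SERPINB1 -0.25 and PTPN11 0.0027. Between the drugs at 24 h they were VEGFA 0.38, SOCS3 0.40, CXCL8 0.59, PLAU -0.42, FKBP5 0.17, SERPINB1 -0.27, SERPINB7 0.27 and PTPN11 0.0076. The cause was not tested.

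STAT3 cascade calls for ciclopirox (24 h) and crizotinib (8 h) were 5 and 2 with no detection filter, where more probes were tested, and 3 and 1 with only the groups compared in the fit, which holds fewer arrays. Without 1 array they were 3 to 6 and 4 to 6 for ciclopirox at 8 h and 24 h, 2 to 6 and 4 to 6 for crizotinib, and 4 to 6 between the drugs at 24 h. The lowest counts against control came without control replicate 1. A replicate block, although the numbers do not pair the arrays, moved SERPINA3 to -1.53 and -1.25 at 8 h of ciclopirox and crizotinib, and to 1.69 and -1.59 for the changes over time, with 11 of 89 calls lost, against 29 with no detection filter and 29 with only the groups compared in the fit. No call turned sign when 1 array was left out, and 47 of 89 were lost at least once. Of the 8 most alike genes 4 to 7 were kept.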
